A study of Homo sapiens with 12 samples.

Results

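m6A peaks in the 5' untranslated region (5' UTR) of protein-coding transcripts were taken from HGC27 cells, an established human gastric carcinoma line. They were chosen by their annotation alone: a listed peak was a member where the authors' peak list placed it in a 5' UTR and gave its transcript the type protein-coding. The 5' UTR annotation may rest on another transcript than the one whose type is listed, which the files do not settle. The control list held 3722 members among 39492 peaks, and the list of FTO knockdown cells held 2970 among 28888. In the authors' table of differential m6A peaks, 963 of 8687 named rows were 5' UTR rows of a gene with a listed member, on 896 genes; 110 of these rows carried another transcript type there.

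The series concerns FTO and ferroptosis, an iron-dependent cell death, by way of HOXC8, MDM2 and p53. Control cells (titles WT_Con, genotype WT) and FTO knockdown cells (titles FTO-KO_sh, genotype FTO-KO, knocked down per the protocol) each gave 3 IP libraries, made from RNA fragments of about 100 nt bound by an m6A antibody, and 3 input libraries, made before enrichment. No label names a control hairpin, and none says whether numbers 1 to 3 were separate cultures or different hairpins, so p-values measure the spread between these libraries, which may be technical. Each condition had 1 peak list over its libraries, so peak values have no replicate error, and their intervals (95%, exact binomial for shares, order statistics for medians) cover counting error only.

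m6A is a methyl mark on adenosine inside messenger RNA, laid down by the METTL3 complex, removed by the demethylases FTO and ALKBH5, and densest near stop codons and in 3' UTRs. The 5' UTR is the stretch that the small ribosomal subunit scans before the start codon. m6A antibodies also bind m6Am, a related mark on the first transcribed adenosine next to the cap, on which FTO can also act. A peak at a transcript's start can therefore hold either mark, and these data do not separate them.

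In the input libraries FTO itself, which held no member, stood at 5.48, 5.68 and 5.52 FPKM in controls and at 0.786, 0.830 and 0.765 FPKM after knockdown. HOXC8 and MDM2 held no member either. FPKM were deposited for 6396 genes with a differential peak and summed over them to between 74289 and 78461 in controls and between 83712 and 86902 after knockdown; read depth was unknown. Of 32 markers of fibroblast, endothelial, immune and gastric epithelial cells, 3 had an FPKM. COL1A1, a fibroblast collagen, lay at 165 to 176 FPKM in controls and 138 to 154 after knockdown, THY1, a fibroblast surface marker, at 11.8 to 12.9 and 14.4 to 15.4, and the epithelial mucin MUC1 at 1.19 to 1.26 and 1.19 to 1.61. The summed level of these 3 ran from 178 to 190 FPKM in controls and from 154 to 171 after knockdown, and its part in the results was not tested.

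The sequences at the start of the transcript show what these peaks cover. The first 20 bases are given 5' to 3' on the transcript's strand from RefSeq (GRCh38.p14), with the first base in capitals, for 5 of the most enriched members and for SMAD6, which was chosen after its values were seen.
FLVCR1, chr1:212858275-212858294, plus strand: Agaccttcatctgttcacgc
G6PC3, chr17:44070735-44070754, plus strand: Agtagggaggaaaaccggag
UBL3, chr13:29850598-29850617, minus strand: Agtcgcactcaggcagccgc
SMAD6, chr15:66702236-66702255, plus strand: Atatgatgggaggcagccaa
CNTNAP1, chr17:42682531-42682550, plus strand: Gaaaccggcgcgtgccagga
JPH2, chr20:44187169-44187188, minus strand: Gacagccccgcacacccact
The first 4 begin with A, and CNTNAP1 and JPH2 with G. They are examples, and other highly enriched members varied too. AEBP2 and LYSMD1 begin with C, IRF2BP1 with G, and MORF4L1 and CNTROB with A. MEN1 and MGAT1 each have a start with G and another with A. KCTD1 has starts with G and with C.

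RefSeq starts were found for 3004 of the 3757 genes with a member. In the control list 1090 members covered a RefSeq start with its first 50 bases, which gave 1134 windows, and in the knockdown list 787 members gave 812. The first base was A in 56.8% of control windows (53.8% to 59.7%) and in 55.0% of knockdown windows (51.6% to 58.5%). It was A in 47.0% of 3415 windows of genes with a 3' UTR peak and no member, and in 44.4% of all 34943 RefSeq starts. Member windows were starts covered by a peak, whereas the compared windows were not chosen by a peak at the start. Among windows of genes with a differential member the share was 48.0% (130 of 271) where m6A was higher after knockdown and 54.7% (75 of 137) where it was lower, against 58.1% (570 of 981) for members with no differential row. No test was run on these shares.

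The core of the m6A consensus, GGACT, was searched in the same windows on the transcript's strand, together with the shorter GGAC that it contains. GGACT lay in 5.73% of control and 6.40% of knockdown windows, against 4.95% of windows of genes with a 3' UTR peak alone and 4.89% of all starts. GGAC lay in 23.9% and 26.0%, against 19.2% and 18.9%. The opposite-strand letters AGTCC lay in 4.06% and 4.31% of member windows, against 5.24% and 4.91%. The median GC content of the windows was 66% in both member sets and in genes with a 3' UTR peak alone, and 60% over all starts. In 37 genes a member of both lists covered a GGACT. The 5 of these with the highest control enrichment are shown with the motif in capitals.
KCTD1, chr18:26548504-26548525, minus strand: gcctggcagcggGGACTgtaac
FASTK, chr7:151080768-151080796, minus strand: tgggaagatggcGGACTcggtggctagcc
ABTB2, chr11:34357961-34357984, minus strand: ccggctggtcccGGACTcgcgctg
PGBD4, chr15:34102083-34102110, plus strand: gcctatgaaggGGACTgcccatgaagtg
GPBP1, chr5:57214074-57214090, plus strand: GGACTtgccatgaggtg
The control peaks over these sites had a fold enrichment of IP over input of 23.4, 21.4, 17.1, 16.6 and 14.3 in that order, and the knockdown peaks 164, 10.6, 25.8, 25.1 and 17.3. A match is a description of the sequence, not a mapped site.

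The transcript's start lay inside 69.9% of control members (68.4% to 71.4%) and 63.8% of knockdown members (62.0% to 65.5%). On protein-coding transcripts it lay inside 11.6% and 10.2% of 3' UTR peaks and 22.3% and 15.7% of other exon peaks. Members were chosen by their 5' UTR annotation, which itself places them towards a start. The 5' end of the peak fell on the annotated start itself in 25.8% and 19.9%, and within 50 bp of it in 43.7% and 41.4%. Members spanned a median of 299 exonic bp in the control list and 269 in the knockdown list, against 421 and 359 for 3' UTR peaks and 327 and 270 for other exon peaks, and 43.7% and 36.4% were spliced over at least 2 exonic blocks.

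**Figure D1:**
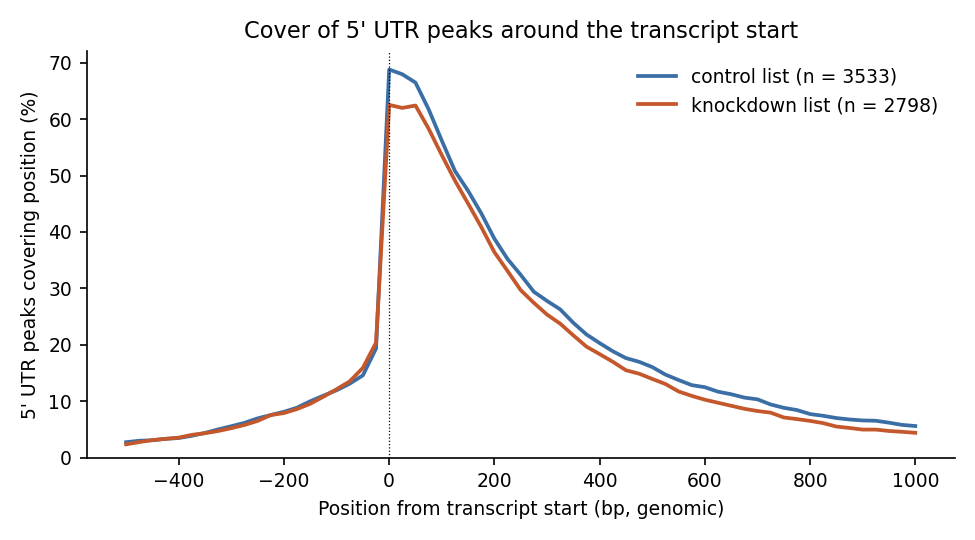
Share of 5' UTR peaks covering each position from the transcript start (genomic bp, 0 at the start, negative upstream) for the control and knockdown lists, over the 3533 and 2798 members whose gene is that of the nearest transcript. Cover is highest at the start in both lists and falls off downstream.

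Members made up 28.3% of the 13172 peaks on protein-coding transcripts in the control list (27.5% to 29.0%) and 28.3% of the 10503 in the knockdown list (27.4% to 29.1%). They lay on 3134 genes in the control list and 2498 in the knockdown list. Both lists held a member for 1875 genes, which is 59.8% of the control genes and 75.1% of the knockdown genes. Most genes had 1 member (2644 and 2114), and the most on a gene was 5 and 6.

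Fold enrichment of members had a median of 6.11 in the control list (6.11 to 6.19) and 7.05 in the knockdown list (6.69 to 7.28). The medians of 3' UTR peaks were 6.20 and 7.82 and those of other exon peaks 5.76 and 7.10. Members lay close to both in the control list. In the knockdown list they lay close to other exon peaks and below 3' UTR peaks (7.55 to 8.09). Enrichment of at least 20-fold was listed for 6.18% of control and 12.8% of knockdown members, against 8.24% and 14.7% of 3' UTR peaks and 5.62% and 9.85% of other exon peaks. An adjusted p of at most 1e-05 was listed for 58.7% and 76.1% of members, against 72.6% and 89.8% of 3' UTR peaks and 58.0% and 79.0% of other exon peaks. In genes with both a 5' and a 3' UTR peak, the most enriched peak of each kind was compared. The 5' UTR peak was the higher in 37.6% of 806 genes in the control list (303 genes). It was the higher in 38.9% (214 of 550) in the knockdown list. The medians of these 5' and 3' UTR peaks were 6.845 and 10.2 in the control list, and 8.145 and 11.3 in the knockdown list. A gene with more peaks of a kind had more to take the highest from.

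**Figure D2:**
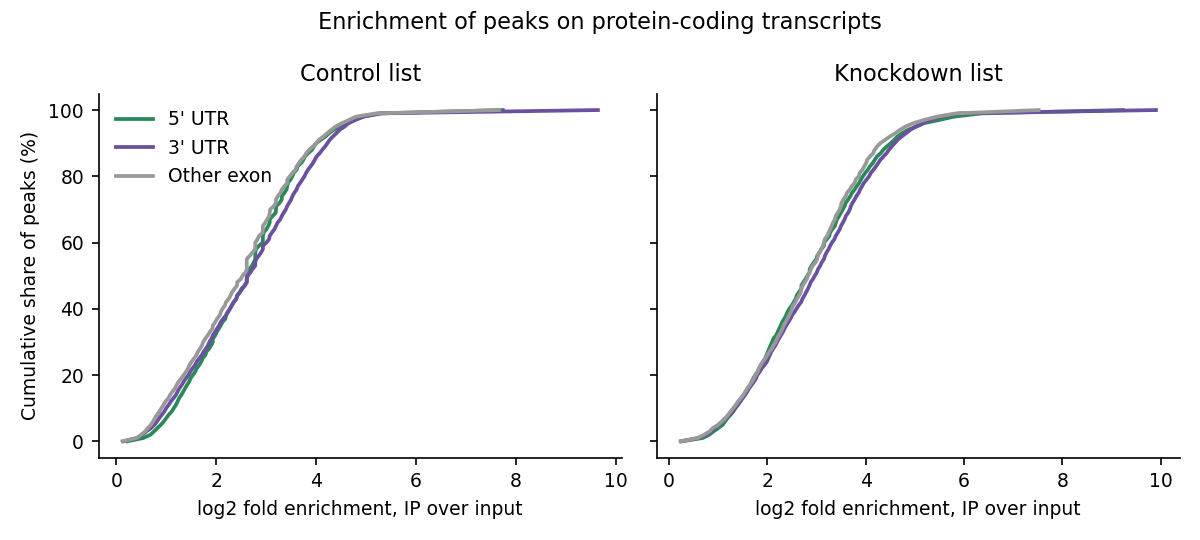
Cumulative share of peaks (percent) against log2 fold enrichment of IP over input, for 5' UTR, 3' UTR and other exon peaks on protein-coding transcripts in each list. The 3 curves run close together, with control medians of 6.11, 6.20 and 5.76-fold and knockdown medians of 7.05, 7.82 and 7.10-fold.

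A peak of the other list overlapped 65.4% of control members (63.8% to 66.9%) and 83.3% of knockdown members (81.9% to 84.6%) by at least 1 bp. For 3' UTR peaks the shares were 64.4% and 93.7%, and for other exon peaks 56.5% and 88.4%. Members with such an overlap were the more enriched, with medians of 6.87 against 4.77 in the control list and 7.85 against 4.04 in the knockdown list.

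FLVCR1, a heme and choline transporter, headed the control list at 213-fold and stood at 395-fold after knockdown. G6PC3, the widely expressed catalytic subunit of glucose-6-phosphatase, followed at 133-fold and 385-fold. The next control members were JPH2, a junctophilin, at 116-fold, CNTNAP1, a cell adhesion protein of the axon, at 112-fold, KIRREL1, an adhesion protein, at 93.9-fold, and AEBP2, a partner of Polycomb repressive complex 2, at 87.8-fold. SIX5, a homeobox factor, MORF4L1, a chromodomain protein, MGAT1, an N-glycan transferase, and CNTROB, a centriole protein, lay between 77.9-fold and 82.5-fold.

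MEN1, which encodes menin, headed the knockdown list at 599-fold. UBL3, a membrane-anchored ubiquitin-like protein, stood there at 327-fold, the zinc finger gene ZBTB47 at 287-fold, the corepressor gene IRF2BP1 at 231-fold, and EEF1D, a translation elongation factor, at 211-fold. LYSMD1 and KCTD1 stood at 170-fold and 164-fold. A fold enrichment is the authors' own value and ranks peaks within a list only.

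In the authors' deposited table of differential peaks, m6A in 5' UTRs was more often higher than lower after FTO knockdown. Of the 963 members 623 were higher, which is 64.7% (61.6% to 67.7%), and 340 were lower. Of all rows in the table, 55.4% were higher and 44.6% lower. Among 3' UTR rows 53.4% (2521 of 4723) were higher, and among other exon rows 54.2% (1471 of 2713). Both of these sets hold rows of any gene and transcript type, whereas members were limited to genes with a listed member. The median log2 change, knockdown over control, was 0.58 for members, 0.21 for 3' UTR rows, 0.32 for other exon rows and 0.28 over all rows. A rise of at least 1 on the log2 scale was listed for 28.1% of members, against 16.8% of all rows, and a fall of that size for 8.62%, against 9.69%. The difference between regions was not tested, since all rows come from the same libraries.

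Members that held the transcript start were higher in 66.8% (494 of 740), and the other members in 57.8% (129 of 223). In 243 genes with both 5' and 3' UTR differential rows, the 5' UTR row was higher in 76.5% (186 genes) and the 3' UTR row in 59.3% (144 genes). Both were higher in 123 of these genes and both lower in 36, the 5' UTR alone was higher in 63, and the 3' UTR alone in 21. Of 63 genes with at least 2 differential members, 6 had members in both directions.

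**Figure D3:**
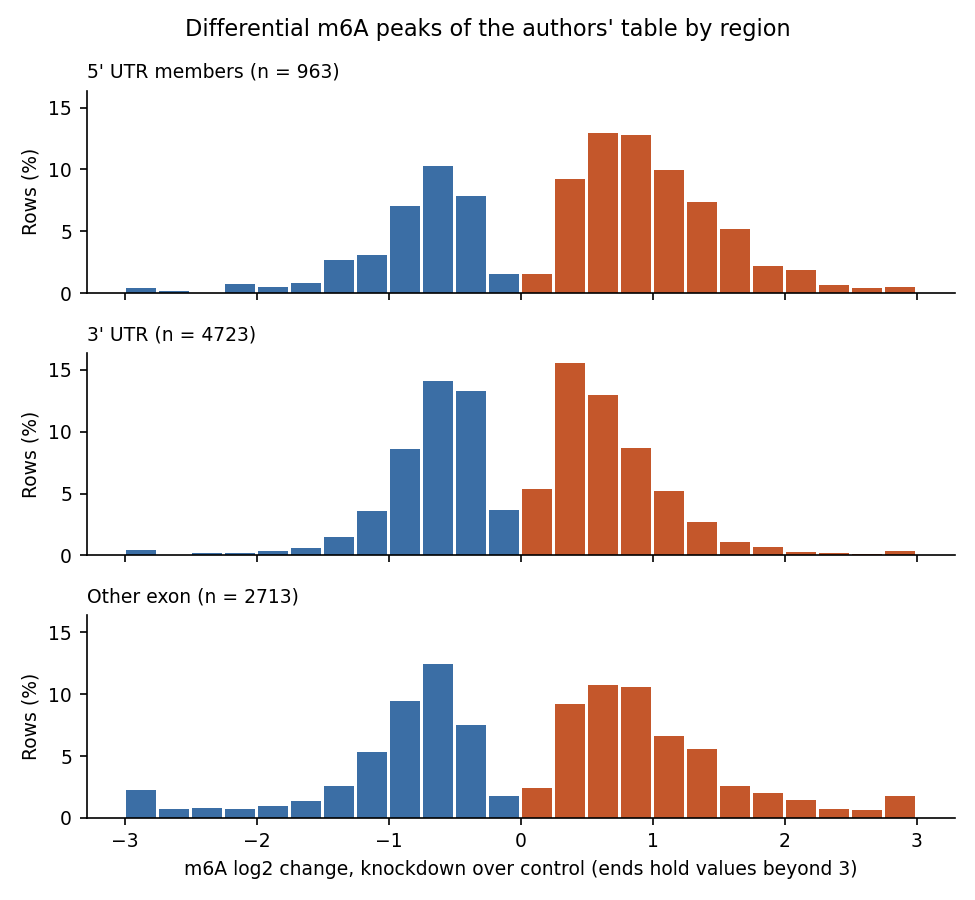
Share of rows (percent) of the authors' table of differential m6A peaks in bins of log2 change, knockdown over control, for 963 5' UTR members, 4723 3' UTR rows and 2713 other exon rows; orange bars are higher and blue bars lower after knockdown, and the end bars hold values beyond 3. More of the 5' UTR rows lie above 0 (64.7%) than of the 3' UTR (53.4%) and other exon rows (54.2%). The 3' UTR and other exon rows are of any gene and transcript type.

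Where a member had a peak in both lists, the sign of the authors' change matched that of the knockdown over control enrichment in 545 of 615 (88.6%). The rest, which include FOSB, HOXC10 and TGFB3 among the genes named here, went the opposite way.

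Among members on genes averaging 1 FPKM or more, the authors' table gave the largest rise to CHD3, a chromatin remodeller of the NuRD complex, at 3.39 on the log2 scale (adjusted p = 0.00479, from the deposited table), with 6.74-fold enrichment in the control list and 99.5-fold after knockdown. TRIM11, a ubiquitin ligase, rose by 3.28 in a row that lay 3817 bp from the transcript start and matched no peak in either list, ARPC5L, a subunit of the actin-nucleating Arp2/3 complex, by 3.05, and SOCS7, of the suppressor of cytokine signalling family, by 2.63, all from the authors' table. PRXL2B, FAM3C, CNKSR3, PLEKHA2, ZZEF1 and SLC46A3 completed the 10, with changes between 2.37 and 2.53.

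The largest fall was that of DPAGT1, the enzyme of the first step of N-glycan precursor synthesis, at -3.08 in the authors' deposited table, where its transcript type was nonsense-mediated decay. SLAIN2, a microtubule plus-end protein, followed at -3.01, and TOB1, an antiproliferative protein, at -2.25. EXTL3, of heparan sulphate synthesis, listed there on a processed transcript, stood at -2.00, PIK3CA, the catalytic subunit of PI3-kinase alpha, at -1.98, and FYTTD1, an mRNA export adaptor, at -1.94. MRAS, MPP6 and CD81 lay at -1.87, -1.75 and -1.71. The table holds rows with an adjusted p up to 0.114, and among the genes named here it exceeded 0.05 for MRAS (0.0955), LPCAT3 (0.0832) and CHD1 (0.11). For 8 of these 9 genes no knockdown peak was matched. CD81, a tetraspanin, had one, at 46.6-fold in the control list and 19.4-fold in the knockdown list.

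Named groups of genes are described by how many of their genes with any peak carried a member, and by the median log2 change of their differential rows in the authors' table, which was 0.28 over all rows and 0.58 over all members. Of the rows named below, those of SETD2, NDUFA13 and 1 of ASNS were listed there on nonsense-mediated decay transcripts and that of SMAD1 on a processed transcript. Chromatin regulators carried members in 29 of 68 genes with any peak. Their differential genes split 5 to 5 at the row of smallest adjusted p. Their 12 rows, with more than 1 for CHD4 and for KMT2D, had a median of 0.64. With 1 row per gene the median was 0.21. Beside CHD3, the higher ones were KMT2D, a histone H3 lysine 4 methyltransferase, at 1.32, ASXL1 at 0.98, CHD4 at 0.77 and KDM5A at 0.62. Those lower were SETD2, the histone H3 lysine 36 methyltransferase, at -0.98, CHD2 at -0.62, CHD1 at -0.41, CHD8 at -0.31 and the acetyltransferase gene EP300 at -0.20.

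Signalling genes of the TGF-beta family carried members in 15 of 23 genes with a peak. The inhibitory SMAD genes stood high, SMAD6 at 41.1-fold in controls and 105-fold after knockdown, and SMAD7 at 64.7-fold and 98.8-fold. Neither had a differential row. The ligand genes TGFB2 and TGFB3 were lower, at -0.45 and -0.17, and the receptor gene BMPR2 and the signal transducer SMAD1 were higher, at 0.26 and 0.48 (median 0.05).

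All 3 differential genes of the m6A machinery were higher: the demethylase gene ALKBH5 at 1.38, the m6A reader gene IGF2BP2 at 1.35 and the nuclear reader gene YTHDC1 at 0.49 (median 1.35), where 64.7% of all members were higher. The YTHDC1 row matched a control peak of 12.2-fold and no knockdown peak. The list had members in 10 of 25 genes with a peak. METTL3, the catalytic methyltransferase, had members of 2.51-fold and 4.13-fold and no differential row. In ferroptosis genes, 11 of 27 carried a member. CHAC1, a glutathione-degrading enzyme, was higher at 1.12, SLC3A2, the partner subunit of the cystine transporter, at 0.32, and LPCAT3, a phospholipid acyltransferase, lower at -0.86 (median 0.32). The transporter SLC7A11 and the ferritin subunit gene FTH1 carried members of 2.60-fold and 2.90-fold in controls and 2.89-fold and 3.17-fold after knockdown.

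HOX cluster genes, which encode homeobox factors, carried members in 19 of 36 genes with a peak. HOXA3 and HOXA9 were higher, at 2.01 and 1.34, and HOXB6, HOXA11 and HOXC10 lower, at -0.61, -0.51 and -0.30 (median -0.30). HOXA9 averaged 0.489 FPKM in controls and 0.397 after knockdown, below the 1 FPKM asked of genes in the RNA tests. Among proto-oncogenes and immediate early factors, 17 of 35 carried a member. MAX, the dimer partner of MYC, was higher at 1.28, and JUN and FOSB, subunits of AP-1, at 0.52 and 0.51. MYC was lower at -0.21 (median 0.52). In the cell cycle list (10 of 30), the kinase genes WEE1 and PLK2 were higher, at 2.10 and 0.45. The checkpoint kinase gene BUB1 and the inhibitor gene CDKN2A were lower, at -1.04 and -0.31. The median was 0.45 over 5 rows, 2 of them of WEE1, and 0.07 with 1 row per gene.

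Ribosomal protein genes carried members in 11 of 46 genes with a peak, and RPL8 and RPS15 were higher, at 1.29 and 0.79 (median 1.04). Initiation factors carried them in 9 of 30 (EIF4G2 higher, at 0.60), splicing factors in 11 of 30 (TRA2B higher, at 1.62) and oxidative phosphorylation genes in 13 of 56. NDUFS6 and UQCRH of that last list were higher, at 1.60 and 0.65, and NDUFC1 and NDUFA13 lower, at -1.71 and -0.58 (median 0.03). Chaperone genes carried members in 8 of 23 (HSP90B1 higher at 0.71, BAG3 lower at -1.21, median -0.25), among them HSPA1A and HSPA1B, near-identical copies whose peaks are uncertain. Genes of the integrated stress response and of upstream open reading frames carried them in 8 of 19. CHAC1 was higher, and ASNS, asparagine synthetase, was lower, in 2 overlapping rows at -0.55 and -0.56. The median was -0.55 over 3 rows and 0.28 with 1 row per gene. Markers of fibroblast, endothelial, immune and gastric epithelial cells had members in 4 of 16 (CD14, DCN, LUM and PDGFRB), with no differential row.

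**Figure D4:**
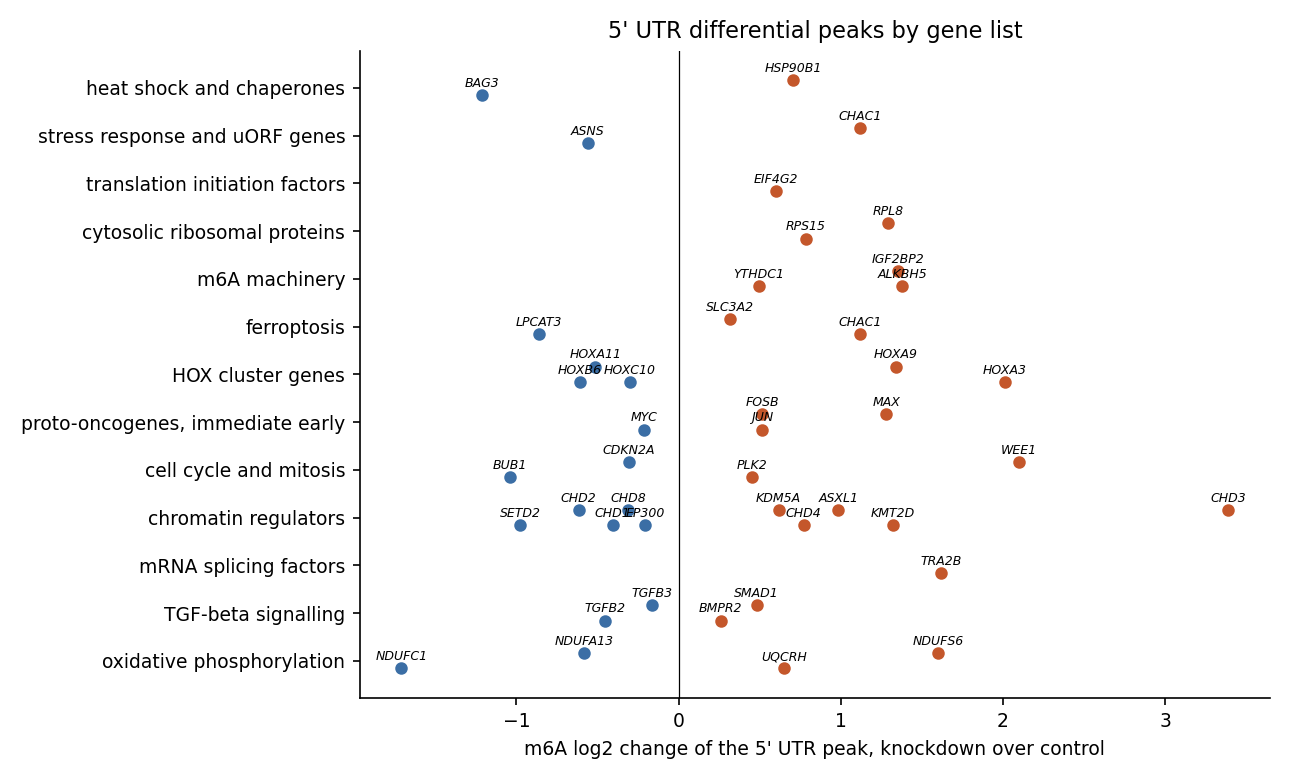
Log2 change of the 5' UTR peak, knockdown over control, in the authors' table for genes of 13 lists, 1 point per gene at its smallest adjusted p; orange points are higher and blue points lower after knockdown. The 3 points of the m6A machinery, the 2 of ribosomal proteins and the 1 point each of initiation and splicing factors lie above 0. Of all members 64.7% were higher. Chromatin regulators split 5 to 5.

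RNA levels of the genes with a differential member were compared between input libraries on the log2(FPKM + 1) scale with limma, which understates the change of low genes. Of the 896 genes, 805 averaged 1 FPKM or more and entered the fit. At an adjusted p of 0.05 (limma, Benjamini-Hochberg over 4515 genes), 494 of them changed (61.4%), against 62.4% of all genes tested. They rose in 192 (23.9%, against 24.5%) and fell in 302 (37.5%, against 37.9%), so the counts lay near this background. All genes tested had a differential peak in some region, and they include these 805. Genes without a differential peak had no FPKM here. Centring each library on its median turned the split to 260 rises and 217 falls, and quantile normalization to 248 and 234; over all genes tested the same scalings gave 1507 and 1213, and 1425 and 1291. In bulk samples, fewer cells with a transcript and less of it per cell cannot be told apart.

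Where the 5' UTR peak was higher after knockdown, 144 genes rose (26.9%) and 183 fell (34.2%) of 535 tested, with a median log2 change of -0.04. Where it was lower, 48 rose (17.8%) and 119 fell (44.1%) of 270, with a median of -0.14. Of all genes tested 24.5% rose and 37.9% fell, with a median of -0.07. With median-centring 36.1% rose and 24.1% fell where the peak was higher, 24.8% and 32.6% where it was lower, and 33.4% and 26.9% over all genes. The m6A change and the RNA level share the input libraries, and the part this plays was not tested. The values of the control and knockdown libraries did not overlap in 542 of the 805 genes (67.3%), against 67.8% of all genes tested.

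Among the genes with the largest m6A rises, CHD3 stood at 12.9, 12.7 and 12.9 FPKM in controls and 16.3, 16.1 and 16.5 after knockdown. Its groups did not overlap, and limma gave 0.32 (SE 0.0356, adjusted p = 0.000182). TRIM11 stood at 4.83, 4.85 and 4.78 FPKM in controls and 5.56, 4.88 and 4.96 after knockdown. Its RNA change did not pass the test (limma, log2 change 0.07, adjusted p = 0.257), but did with median-centring (0.0309) and quantile normalization (0.0269). Among the 10 largest m6A rises, 2 genes passed it, CHD3 and PRXL2B, both upward, where 62.4% of all genes did. Without control library 3, SOCS7 (log2 change -0.16, adjusted p = 0.0092) and SLC46A3 (-0.25, 0.00824) also passed, downward. ARPC5L passed with quantile normalization (0.0411) and median-centring (0.0494), and CNKSR3 with quantile normalization (0.045), both upward, and PLEKHA2 passed with a replicate block (-0.15, 0.0283).

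SLAIN2, the second largest m6A fall, stood at 5.76, 5.83 and 5.08 FPKM in controls and 2.53, 2.82 and 2.35 after knockdown. All knockdown libraries lay below all controls, and limma gave -0.88 (SE 0.068, adjusted p = 3.94e-05). MRAS, a Ras-related GTPase, fell from 5.13, 4.82 and 5.41 FPKM to 2.32, 2.56 and 2.63. Of the 9 genes named for large m6A falls, 8 passed the test, where 62.4% of all genes did. TOB1 rose, by 0.19, and the other 7 fell. Of all genes tested 37.9% fell, and of those with a lower 5' UTR peak 44.1%. CD81 missed the test (limma, log2 change -0.13, adjusted p = 0.079). MPP6 lost its call under both other scalings and without any 1 of 4 libraries (control 1 or 2, knockdown 2 or 3), at an adjusted p of 0.0512 to 0.0727 without a library, and EXTL3 lost it with median-centring (0.0564).

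ALKBH5, with its higher 5' UTR peak, stood at 58.4, 58.2 and 63.9 FPKM in controls and 54.3, 52.2 and 54.1 after knockdown. Its libraries did not overlap between groups (limma, log2 change -0.16, adjusted p = 0.0169), and the call was lost with median-centring (0.288) and without knockdown library 2 (0.06). MAX rose from 9.01, 9.29 and 8.78 FPKM to 12.7, 12.4 and 12.7, and CHAC1 fell from 31.0 ± 1.73 to 22.0 ± 0.941 FPKM (SD, n = 3). Peak and RNA thus moved the same way in MAX and opposite ways in ALKBH5 and CHAC1. KMT2D, whose peak was higher, stood at 18.8 ± 0.0561 FPKM in controls and rose to 25.2 ± 1.57 after knockdown (SD, n = 3 libraries each), with an adjusted p of 0.000305 in limma.

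On the log2(FPKM + 1) scale the RNA that rose most among genes with a differential member was that of the integrin gene ITGA3, at 6.23 ± 0.128 FPKM in controls and 14.1 ± 1.12 after knockdown (SD, n = 3). ADAT3, a tRNA deaminase subunit, stood at 0.228, 1.42 and 1.29 FPKM in controls and 2.42, 2.54 and 2.46 after knockdown, so that 1 control library lay far below the other two. Its ratio of mean FPKM, 2.52, was above the 2.26 of ITGA3. PPP2R1B, a scaffold subunit of protein phosphatase 2A, rose from 11.8, 11.6 and 11.3 FPKM to 19.7, 20.9 and 21.3. The rest of the 10 largest rises were RRP9, BCL2L1, ARID3B, BRMS1, SLC4A2, UHRF1 and WDR81, between 0.65 and 0.71 on the log2 scale.

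On the falling side, MIB1, a ubiquitin ligase of Notch signalling, went from 21.6, 21.1 and 17.6 FPKM to 8.04, 8.28 and 8.26. COL11A1, a chain of collagen XI, went from 8.90, 8.68 and 6.51 to 3.42, 3.66 and 3.17, and CCDC80, an extracellular matrix protein, from 9.46, 9.76 and 8.42 to 3.80, 4.14 and 4.22. COL6A3, H6PD, ALDH3A1, FAM8A1, ASNS, OPRL1 and JCAD made up the 10, with log2 changes between -1.94 and -0.91. The rule that named these 20 genes required groups that do not overlap.

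**Figure D5:**
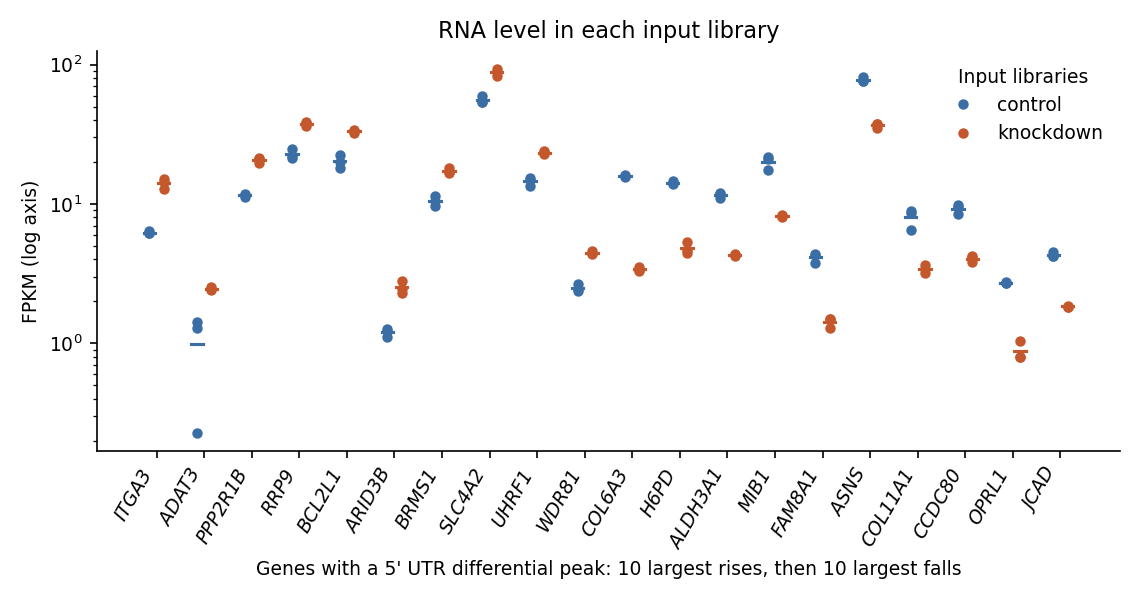
FPKM (log axis) of the 20 genes in each of the 3 control (blue) and 3 knockdown (orange) input libraries, with bars at the group means. The first 10 genes rose and the last 10 fell, and the groups do not overlap in any of them; 1 control library of ADAT3 stands at 0.228 FPKM.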

How the data were processed

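Samples were grouped by their titles. The submitters' processing notes list HISAT2 2.0, StringTie 1.3.0 and Bowtie 0.12.2 with no roles, and name the mouse build mm8; the peak caller is not given in the sources used here. Identifiers and positions were human: of 3680 member genes found in RefSeq GRCh38.p14 by symbol, 3678 (99.9%) overlapped its span, so positions are read as GRCh38, counted from 1. Members and gene lists were chosen with earlier results of these data known.

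FPKM per input library were computed by the authors, per the file headers. The deposited peak lists give, per the file headers, fold enrichment, a ratio of IP to input. They also give a deposited score that is log10 of an adjusted p. In them 3 repeated rows were dropped. The deposited differential table gives a log2 change of m6A, control over knockdown, which was turned to knockdown over control, and, per the file headers, a deposited p-value beside its adjusted form. Its rows with no gene name were left out, as were 288 5' UTR rows of genes without a listed member. The transcript type is that of the transcript, not the gene.

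Genes averaging 1 FPKM or more were tested on log2(FPKM + 1) with limma 3.58.1 (trend, two-sided, no block, Benjamini-Hochberg) in R 4.3.3. On simulated data for that comparison (4515 genes), recovery over 50 genes per size was 40% for log2 shifts of 0.2, 92% for 0.5, 98% for 1 and 100% for 2, and 8 of 173 calls were false. The simulation changed far fewer genes than the 62.4% called in the data. Its noise was drawn for each gene separately, with no shift shared by a library. Its rates may therefore not hold for the data. No sequence on chromosome 8 is shown or counted among genes with a GGACT in both lists. Overlaps used exonic blocks on the same strand where strands were known. Other tables used Python 3.11.15 and its pandas 2.3.3.

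Named were the 10 most enriched members per list, the 10 largest m6A rises and falls on genes with at least 1 FPKM, the 10 largest RNA rises and falls among changed genes whose libraries did not overlap, the 2 members per list with the smallest p, and examples of the lists; some genes that these rules name are not reported here. Alternatives changed the pseudocount, filter, scaling, peak threshold, overlap and replicate set.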

Additional observations from a re-analysis of the deposited data

How the results depend on the processing

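The share of members among peaks of protein-coding transcripts (28.3% in both lists) compares with 12.6% and 13.9% for 5' UTR peaks of any transcript type among all peaks, and was 25.3% and 25.9% where the adjusted p was 1e-05 or less; enrichment of at least 4-fold gave 28.8% and 27.8%. Median enrichment rose to 6.91 and 7.80 at that adjusted p, and to 6.84 and 7.66 with 1 peak per gene. The overlap between lists was 48.0% and 58.3% at 50% reciprocal overlap, 55.5% and 72.1% against members of the other list, and 86.5% and 92.0% where the adjusted p was 1e-05 or less. The share of differential members higher after knockdown stayed above 50% under every alternative run: 67.9% at an adjusted p of at most 0.05, 76.6% at an absolute log2 change of at least 1, and 64.2% to 67.2% under the other 3, one of which (protein-coding transcripts in the differential table) was added after the data were seen. Other regions moved too: on genes of at least 1 FPKM 67.2% of members, 55.6% of 3' UTR rows and 61.5% of other exon rows were higher, which narrows the gap to other exons, and at an absolute log2 change of at least 1 the other regions gave 60.4% and 58.9%. The causes of these shifts were not tested, beyond the change in which peaks count.

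A filter at 5 FPKM left 455 genes with a differential member, of which 307 were called, 148 rising and 159 falling. Without it 192 rose and 302 fell of 805, so the excess of falls was smaller under this filter. Of all genes kept by it 67.1% were called. Leaving out 1 library gave 425 to 546 called genes, 166 to 202 rises and 259 to 344 falls. Same-numbered libraries had correlations of -0.08, 0.03 and 0.02 in their deviations. These values gave no sign of pairing by number over all genes, and no label settles it. A replicate block gave 489 called genes. CNKSR3 turned from -0.05 to 0.14 under quantile normalization. Of 949 values of 81 named genes under the alternatives, 888 kept direction and side of the threshold. Peaks, with 1 list per condition, allowed no leave-one-out. Read depth was unknown, so no depth-based limit could be given.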
